A study of Mus musculus with 18 samples.

Results

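Lipid-associated macrophages are tissue macrophages that gather around lipid-laden or dying cells, and a group of 10 genes commonly used to recognize them was examined in mouse liver. The genes were Trem2, Gpnmb, Spp1, Cd9, Lpl, Fabp4, Fabp5, Lgals3, Cd63 and Capg. They were chosen by symbol, and each matched 1 of the 55487 genes of the count table. All 10 passed the filter on low counts in every comparison.

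TREM2 is a surface receptor that binds lipids, lipoproteins and cell debris and signals through the adaptor TYROBP. Macrophages that take up much lipid are known to raise genes of lipid uptake and transport (Lpl, Fabp4, Fabp5), of lysosomes and their membranes (Gpnmb, Cd63), and of matrix, adhesion and motility (Spp1, Lgals3, Cd9, Capg). In steatotic liver such cells are known from crown-like structures around fat-filled hepatocytes and from scar tissue. None of the 10 genes is specific to macrophages: Spp1, for example, is abundant in bile duct cells, Fabp4 in adipocytes and capillary endothelium, and Lpl in muscle and fat.

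Livers came from male C57BL/6J mice that were bought at 7 weeks of age and acclimatized for 1 week. Every mouse received an AAV8 vector with the hepatocyte-specific TBG promoter 1 week before the diets began. CON-GFP mice were given eGFP and a purified control diet, FPC-GFP mice eGFP and the FPC diet (high in fructose, palmitate and cholesterol, with sugar in the drinking water), and FPC-LIPA mice human LIPA and the FPC diet. LIPA encodes lysosomal acid lipase, the enzyme that hydrolyses cholesteryl esters and triglycerides in lysosomes. Diets lasted 16 weeks, tissue was taken after a 4 h fast, and there were 6 mice per group with 1 library each. No LIPA mice on the control diet are part of the comparison, so the vectors were compared on the FPC diet alone. The promoter is active in hepatocytes, while the 10 genes are read here in RNA of the whole liver.

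Between 16632146 and 37739301 reads were counted on genes per library, and levels are counts per M reads (CPM), scaled by TMM over the 18 libraries. Genes with an adjusted p under 0.05 passed the test, and those that were also at least 2-fold apart were called differentially expressed (DE). Ribosomal protein genes took from 1.77% to 2.58% of the counts in CON-GFP libraries and from 1.46% to 1.82% in FPC-GFP libraries. In FPC-LIPA 31, 33 and 34 the share was from 2.19% to 2.99%, above every FPC-GFP library. It was 6.58%, 8.21% and 8.29% in FPC-LIPA 36, 37 and 39. These last 3 libraries stand apart from the rest, and for the 10 genes and the counts over gene lists the LIPA comparison is also given without them. Mouse Lipa averaged 243, 336 and 300.3 CPM over the livers of the control, FPC-GFP and FPC-LIPA groups, and the human transgene was not analysed here.

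The sequences around the starts of these genes were searched for short motifs that the members do and do not share. RefSeq windows of 300 bases, from 250 before to 50 after a start (GRCm38.p6), matched 7 of the 10 genes with 8 windows. Lpl, Fabp4 and Fabp5 had no entry. The letters searched on both strands were TGANTCA (the outer letters of an AP-1 site, with any base at N), AGGTCA (a nuclear receptor half-site) and GAGGAAGT (a PU.1 type site). CACGTG and TCATGTGA (E-boxes, the second of the MITF type) and TATAAA were also searched. No letters of one motif lay within another. TGANTCA was found for Trem2 (as TGAATCA) and Gpnmb (as TGACTCA) and in 7.81% of all 32851 windows. AGGTCA was found for Trem2 and Capg and in 16.3% of windows. The first of the Spp1 windows held GAGGAAGT and TATAAA, which were in 3.20% and 13.6% of windows. CACGTG (7.15% of windows) and TCATGTGA (0.986%) were in none of the 8 windows. The windows of Trem2 and Gpnmb, the receptor and the gene with the largest diet difference, and of Spp1, the most abundant gene per length, are given 5′ to 3′ with the motif matches in capitals. A match describes these letters only.
Trem2, chr17:48346151-48346450, + strand: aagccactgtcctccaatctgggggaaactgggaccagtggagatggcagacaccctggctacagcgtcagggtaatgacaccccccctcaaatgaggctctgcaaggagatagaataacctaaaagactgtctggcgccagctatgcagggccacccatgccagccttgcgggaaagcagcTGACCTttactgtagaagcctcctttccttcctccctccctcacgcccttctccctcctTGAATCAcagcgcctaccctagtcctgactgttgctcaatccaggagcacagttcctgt
Gpnmb, chr6:49036268-49036567, + strand: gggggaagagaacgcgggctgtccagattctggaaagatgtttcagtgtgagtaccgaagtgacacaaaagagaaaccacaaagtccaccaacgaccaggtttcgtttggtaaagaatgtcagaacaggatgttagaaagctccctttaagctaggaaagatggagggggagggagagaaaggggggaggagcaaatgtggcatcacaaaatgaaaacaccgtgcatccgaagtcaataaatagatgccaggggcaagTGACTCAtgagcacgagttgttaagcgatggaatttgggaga
Spp1, chr5:104434861-104435160, + strand: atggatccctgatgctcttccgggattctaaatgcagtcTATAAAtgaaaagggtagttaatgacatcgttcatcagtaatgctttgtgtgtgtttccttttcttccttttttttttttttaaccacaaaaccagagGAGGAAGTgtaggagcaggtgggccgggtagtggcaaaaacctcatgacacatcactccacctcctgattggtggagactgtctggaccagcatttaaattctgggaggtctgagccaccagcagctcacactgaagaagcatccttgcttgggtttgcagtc

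The first comparison asked how the FPC diet changed these genes in mice with the GFP vector. All 10 genes were higher in FPC-GFP than in CON-GFP, 8 passed the test (edgeR quasi-likelihood test, Benjamini-Hochberg adjustment), and 7 were DE. Gpnmb rose the most, followed by Lpl, Lgals3 and Cd63, while Fabp5 and Fabp4 did not pass in edgeR. With the DESeq2 Wald test 9 of the 10 genes passed, where 14.5% of all tested genes passed and were higher. Over all 14307 tested genes, 12.9% passed and were higher, and 4.76% were DE and higher. In 5 of the 10 genes (Gpnmb, Lpl, Lgals3, Cd63 and Cd9) every FPC-GFP liver lay above every CON-GFP liver, which held for 6.19% of tested genes. The median log2 fold change was 1.41 for the 10 genes and 0.01 for all tested genes. In bulk RNA, more cells of a type and more RNA per cell cannot be told apart.

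The second comparison asked what hepatic LIPA overexpression added on the FPC diet. All 10 genes were again higher, 8 passed and 7 were DE, with Lpl, Trem2 and Gpnmb each more than 3-fold above their FPC-GFP levels. Fabp5 and Spp1 did not pass. Among all 14620 tested genes, 14.4% passed and were higher, and 10.3% were DE and higher. The groups were separate for Lgals3 and Capg, 2 of the 10 genes, against 3.81% of tested genes. The median was 1.12 for the 10 genes and 0.04 for all tested genes. The FPC-GFP libraries serve in this comparison and in that of the diets. Without FPC-LIPA 36, 37 and 39, 2 of the 10 genes were DE, Lgals3 with a log2 fold change of 1.22 (edgeR adjusted p = 0.0187) and Capg with 1.33 (edgeR adjusted p = 0.0440), while all 10 had log2 fold changes above 0 with a median of 0.96. Over all 15246 genes tested there, 0.728% were DE and higher and 1.11% passed and were higher, so the calls fell across all genes. Sample numbers at the end of the submitters' labels run from 55 to 68 for all libraries but 4 (FPC-LIPA 37, FPC-GFP 20, and mice 1 and 2 of CON-GFP). Within 55 to 68 only Lgals3 was DE in the LIPA comparison, where 0.631% of tested genes were DE and higher, and 9 of the 10 genes had a log2 fold change above 0.

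**Figure D1:**
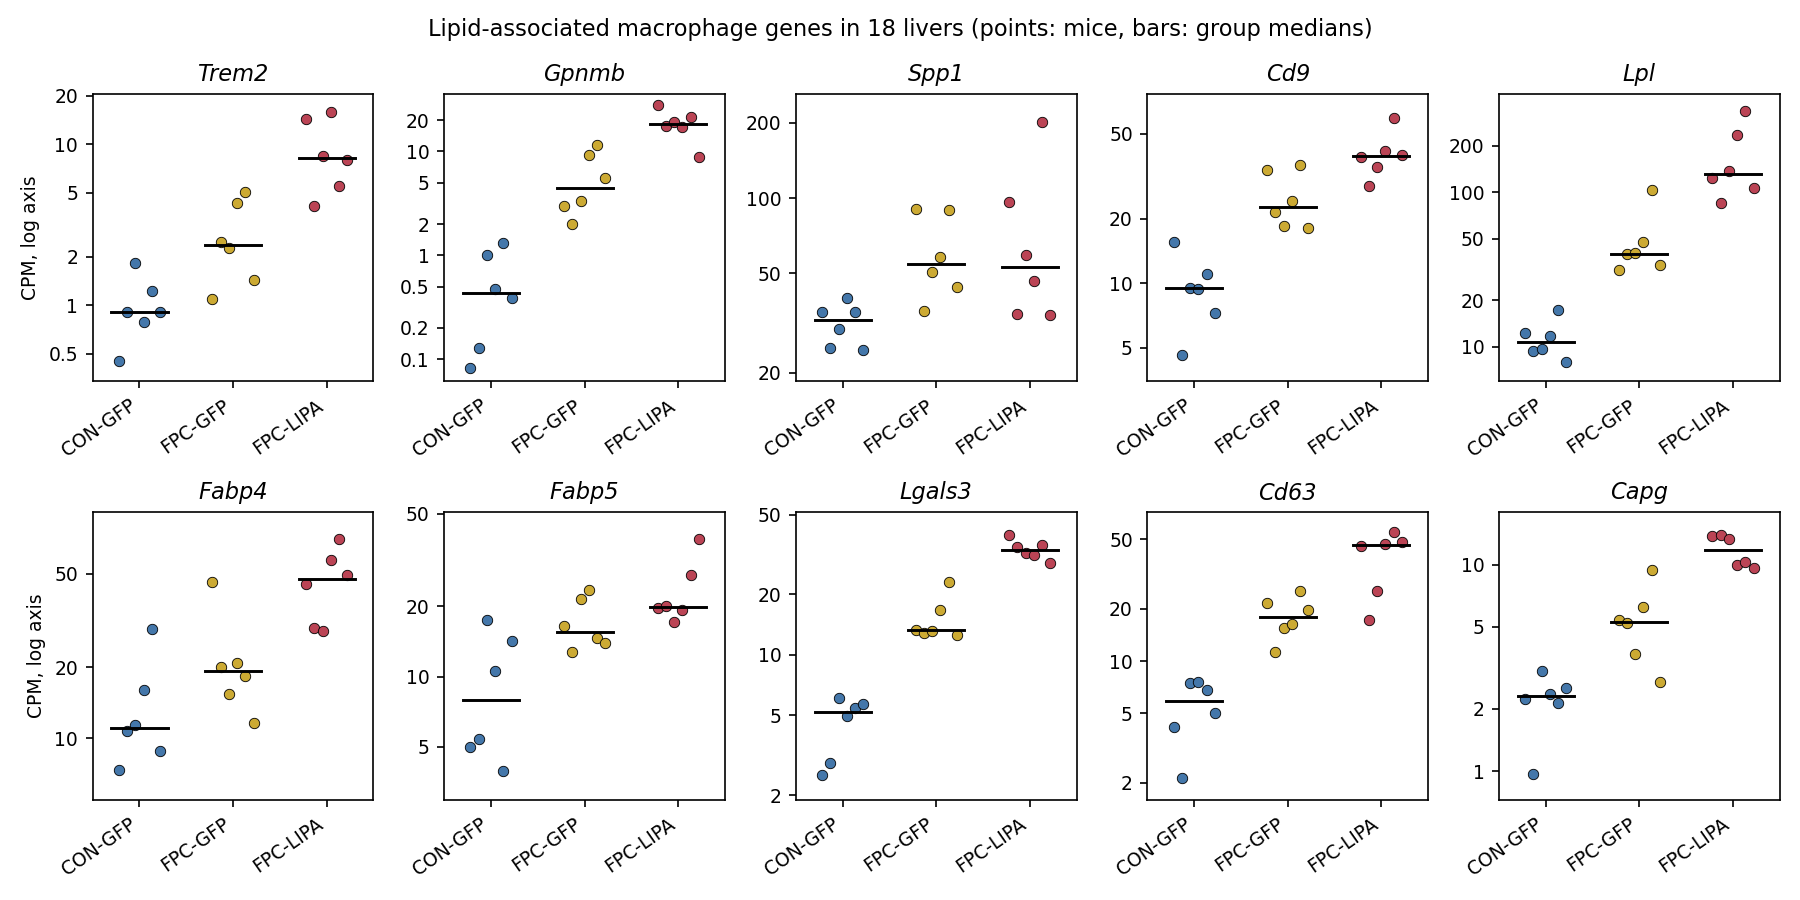
Levels of the 10 genes in CPM (log axis, a scale per panel) in 6 livers each of CON-GFP, FPC-GFP and FPC-LIPA, where points are mice and bars are group medians. Lgals3 separates all 3 groups, with CON-GFP livers at or under 6.12 CPM and FPC-LIPA livers at or over 28.6 CPM, whereas Spp1 in FPC-LIPA spreads from 34.1 to 202 CPM.

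Trem2 (ENSMUSG00000023992, GRCm38 chromosome 17, 48346401 to 48354147), the lipid-sensing receptor of the group, was among the least abundant members. It was lowest at 0.448, at the median 0.907 and highest at 1.83 CPM in CON-GFP livers, then 1.09, 2.36 and 5.07 CPM in FPC-GFP, and 4.14, 8.20 and 15.9 CPM in FPC-LIPA. FPC-GFP 11 and 20 lay within the range of CON-GFP, and FPC-LIPA 33 lay below FPC-GFP 16 and 19. Trem2 rose with the diet by a log2 fold change of 1.43 (SE 0.39, edgeR adjusted p = 0.0169) and with LIPA by 1.76 (SE 0.41, edgeR adjusted p = 0.0167). The LIPA difference was 1.69 without the 3 libraries of high ribosomal share and did not pass there (edgeR adjusted p = 0.0867). Within sample numbers 55 to 68 it was 1.73 (edgeR adjusted p = 0.0667), and the diet difference was 1.35 (edgeR adjusted p = 0.0530).

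Tyrobp, the adaptor through which TREM2 signals, was DE in both comparisons with no overlap of the groups. CON-GFP livers had up to 19.2 CPM, FPC-GFP livers had 20.9 to 38.7 CPM, and FPC-LIPA livers had 55.7 CPM or more. The log2 fold changes were 1.13 (SE 0.23) and 1.86 (SE 0.30). TYROBP also serves other myeloid receptors. Of 13 tested genes of the TREM2 complex and its signalling, 6 passed with the diet and 2 with LIPA, all of them higher. Over all tested genes, 12.9% passed and were higher with the diet and 14.4% with LIPA, so the LIPA count was near that share. The second of the LIPA genes was Hcst, the adaptor DAP10, with 1.62 (SE 0.35). Apoe and Clu, which encode TREM2-binding apolipoproteins made largely by hepatocytes, did not pass in either comparison. Without FPC-LIPA 36, 37 and 39, 1 gene of the list passed in the LIPA comparison. There 1.11% of all tested genes passed and were higher. In that fit 7 of the 13 genes had an unadjusted p under 0.05, against 4 with all libraries. Their median log2 fold change was 0.70, against 0.35.

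Gpnmb (ENSMUSG00000029816, chromosome 6, 49036546 to 49070929) encodes a transmembrane glycoprotein of lysosomes and melanosomes that is known from lipid-loaded macrophages. In CON-GFP it was near the detection limit, at 0.0815, 0.432 and 1.32 CPM (lowest, median, highest), with from 2 to 47 counts per library. It was 2.00, 4.47 and 11.4 CPM in FPC-GFP, and 8.85, 18.4 and 27.8 CPM in FPC-LIPA. All FPC-GFP livers were above all CON-GFP livers, and only FPC-LIPA 39 fell within the range of FPC-GFP. The diet difference was 3.25 (SE 0.55, edgeR adjusted p = 0.00123) on the log2 scale, a 9.51-fold change, and the LIPA difference was 1.70 (SE 0.39, edgeR adjusted p = 0.0167). Without the 3 libraries the LIPA difference was 1.90 (edgeR adjusted p = 0.0586).

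Cd63 and Cd9 encode tetraspanins, membrane proteins that organize other proteins in membranes. Cd63 (ENSMUSG00000025351, chromosome 10, 128900989 to 128912822) marks late endosomes and lysosomes. It was 2.13, 5.91 and 7.57 CPM in CON-GFP livers, 11.3, 18.0 and 25.2 CPM in FPC-GFP, and 17.3, 46.3 and 55.3 CPM in FPC-LIPA. FPC-LIPA 33 lay within the range of FPC-GFP and FPC-LIPA 34 just above it. Cd63 rose by 1.70 with the diet (SE 0.26, edgeR adjusted p = 0.000623) and by 1.13 with LIPA (SE 0.28, edgeR adjusted p = 0.0189), and the latter was 0.70 without the 3 libraries (edgeR adjusted p = 0.217). A pseudogene, Cd63-ps, could share its reads.

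Cd9 (ENSMUSG00000030342, chromosome 6, 125460266 to 125494791) is a tetraspanin of the cell surface and of extracellular vesicles. It had 4.64, 9.48 and 15.6 CPM in CON-GFP livers, 18.1, 22.8 and 35.8 CPM in FPC-GFP, and 28.5, 39.4 and 59.4 CPM in FPC-LIPA. The diet separated the groups, whereas FPC-LIPA and FPC-GFP overlapped. Its log2 fold change was 1.39 with the diet (SE 0.25, edgeR adjusted p = 0.00170) and 0.68 with LIPA (SE 0.22, edgeR adjusted p = 0.0434), under the 2-fold limit. The LIPA difference was 0.44 without the 3 libraries and did not pass there (edgeR adjusted p = 0.316). Cd9 shares its locus with 2 genes on the other strand, Gm26728 and Gm28809, and has a pseudogene, Cd9-ps, so part of its count is uncertain.

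Lpl (ENSMUSG00000015568, chromosome 8, 68880491 to 68907448) encodes lipoprotein lipase, which releases fatty acids from circulating triglycerides. Its level was 7.98, 10.7 and 17.3 CPM in CON-GFP livers, 31.3, 40.0 and 104 CPM in FPC-GFP, and 85.4, 131 and 335 CPM in FPC-LIPA. FPC-GFP 19 stood above the other FPC-GFP livers, the next of which was at 48.0 CPM, and FPC-LIPA 33 was the only FPC-LIPA liver below it. Lpl rose by 2.11 with the diet (SE 0.28, edgeR adjusted p = 0.000298) and by 1.79 with LIPA (SE 0.37, edgeR adjusted p = 0.0136). The LIPA difference was 1.23 without the 3 libraries (edgeR adjusted p = 0.0883), of which FPC-LIPA 36 and 37 held the highest Lpl levels, 235 and 335 CPM.

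Genes that act with lipoprotein lipase did not follow it as a group. Of 11 tested regulators and relatives, 2 passed and were higher and 4 passed and were lower with the diet, and 2 were higher and 1 was lower with LIPA. Over all tested genes, 10.9% passed and were lower with the diet and 6.87% with LIPA, while 12.9% and 14.4% passed and were higher. Only Gpihbp1 passed in the LIPA comparison without FPC-LIPA 36, 37 and 39, with 1.08 (edgeR adjusted p = 0.0111), where 1.11% of all tested genes passed and were higher. Gpihbp1, which carries the enzyme on capillary endothelium, was at medians of 16.4, 23.1 and 61.4 CPM in the 3 groups and rose with LIPA by 1.79 (SE 0.30). Angptl4, an inhibitor of the enzyme, had a log2 fold change of -0.74 with the diet (SE 0.20) and passed the test. Cd36, which encodes a fatty acid and lipoprotein receptor, rose in both comparisons, by 0.60 (SE 0.17) and by 1.20 (SE 0.39), and the LIPA difference was 0.28 without the 3 libraries (edgeR adjusted p = 0.528).

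Fabp4 and Fabp5 encode cytosolic carriers of fatty acids. Fabp4 (ENSMUSG00000062515, chromosome 3, 10204088 to 10208576) was 7.29, 11.1 and 29.2 CPM in CON-GFP livers, 11.6, 19.3 and 46.3 CPM in FPC-GFP, and 28.5, 47.4 and 70.4 CPM in FPC-LIPA. Neighbouring groups overlapped, and the highest GFP values came from CON-GFP 7 and FPC-GFP 11. CON-GFP 7 also held the highest levels of the 18 libraries for the adipocyte markers Adipoq (4.40 CPM), Lep (3.92 CPM), Plin1 (1.82 CPM) and Retn (0.644 CPM). The whole adipocyte list, which includes Cidec, summed to 170 CPM in CON-GFP 7, where the CON-GFP median was 176 CPM. In FPC-GFP 11 that sum was 540 CPM, the highest of FPC-GFP. Adipoq was at most 0.410 CPM in the other libraries, and the part of fat tissue in the Fabp4 level was not tested. The diet difference of 0.65 (SE 0.35, edgeR adjusted p = 0.180) did not pass with all libraries, and without CON-GFP 7 it was 1.02 (edgeR adjusted p = 0.0268).

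With LIPA, Fabp4 rose by 1.08 (SE 0.32, edgeR adjusted p = 0.0310). This call was lost when any of 8 of the 12 libraries was left out, with edgeR adjusted p from 0.0586 to 0.0689. The 8 were FPC-GFP 12, 13, 16, 19 and 20 and FPC-LIPA 36, 37 and 39. Without the last 3 together the log2 fold change was 0.65 (edgeR adjusted p = 0.322).

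Fabp5 (ENSMUSG00000027533, chromosome 3, 10012548 to 10016607) had 3.95, 7.97 and 17.6 CPM in CON-GFP livers, 12.7, 15.5 and 23.4 CPM in FPC-GFP, and 17.2, 19.9 and 39.1 CPM in FPC-LIPA. CON-GFP 3 and 8 lay within the range of FPC-GFP. Neither difference passed in edgeR, with 0.85 for the diet (SE 0.32, edgeR adjusted p = 0.0660) and 0.48 for LIPA (SE 0.23, edgeR adjusted p = 0.133). The latter was 0.16 without the 3 libraries. Without CON-GFP 3 the diet difference was 1.12 (edgeR adjusted p = 0.0186).

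Spp1 (ENSMUSG00000029304, chromosome 5, 104435118 to 104441050) encodes osteopontin, a secreted matrix protein and cytokine. It had 24.6, 32.4 and 39.8 CPM in CON-GFP livers, 35.3, 54.3 and 90.6 CPM in FPC-GFP, and 34.1, 52.9 and 202 CPM in FPC-LIPA. FPC-LIPA 37 held the highest value, and the FPC-LIPA median was not above that of FPC-GFP. Spp1 rose with the diet by 0.95 (SE 0.22, edgeR adjusted p = 0.00712), under the 2-fold limit, with 1 FPC-GFP liver inside the CON-GFP range. The LIPA difference of 0.36 (SE 0.41, edgeR adjusted p = 0.528) did not pass, and it was -0.19 (edgeR adjusted p = 0.686) without FPC-LIPA 37. The gene overlaps Gm42793 on its own strand.

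Since bile duct cells express Spp1, their markers were examined beside it. The summed level of Krt19, Krt7, Epcam, Sox9 and Cftr ran from 3.09 to 12.1 CPM in CON-GFP livers, from 3.59 to 16.6 CPM in FPC-GFP and from 4.15 to 8.89 CPM in FPC-LIPA. Krt19, Krt7, Epcam and Sox9 did not pass in either comparison, and Cftr was too low to be tested. FPC-GFP 11, the highest FPC-GFP liver for Spp1 (90.6 CPM), was also the highest of all libraries for Krt19 (5.64 CPM) and Epcam (5.05 CPM). FPC-GFP 19, nearly as high for Spp1 (90.0 CPM), had 1.20 CPM of Krt19, 1.86 CPM of Epcam and a marker sum of 7.02 CPM. The part of bile duct cells in the Spp1 level was not tested. FPC-LIPA 37, the highest of all for Spp1, had 0.714 CPM of Krt19, 3.33 CPM of Epcam, the highest Epcam level of FPC-LIPA, and the highest sum of its group (8.89 CPM). Of 7 tested osteopontin receptor genes, Cd44 passed in both comparisons, with 1.42 (SE 0.19) and 1.29 (SE 0.37), and 2 integrin genes passed and were higher with the diet. The LIPA difference of Cd44 was 1.13 without FPC-LIPA 36, 37 and 39 (edgeR adjusted p = 0.0316). Among all tested genes, 12.9% passed and were higher with the diet and 14.4% with LIPA.

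Lgals3 (ENSMUSG00000050335, chromosome 14, 47367751 to 47386160) encodes galectin-3, a lectin that binds galactosides on damaged lysosomes and at the cell surface. It was the one member whose 3 groups were all separate, with 2.53, 5.20 and 6.12 CPM in CON-GFP livers, 12.5, 13.3 and 23.0 CPM in FPC-GFP, and 28.6, 33.3 and 39.6 CPM in FPC-LIPA. The FPC-LIPA libraries of high ribosomal share (28.6 to 35.4 CPM) overlapped with the other 3 (32.3 to 39.6 CPM). The log2 fold change was 1.71 with the diet (SE 0.22, edgeR adjusted p = 0.000248) and 1.14 with LIPA (SE 0.18, edgeR adjusted p = 0.00842). It stayed DE in the LIPA comparison within sample numbers 55 to 68 and without the 3 libraries, and was 0.96, just under 2-fold, when the trend on gene length was removed (edgeR adjusted p = 0.0158).

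Capg (ENSMUSG00000056737, chromosome 6, 72544391 to 72562983) encodes a protein that caps the ends of actin filaments. It had 0.967, 2.30 and 3.06 CPM in CON-GFP livers, 2.72, 5.30 and 9.43 CPM in FPC-GFP, and 9.66, 11.8 and 13.9 CPM in FPC-LIPA. FPC-GFP 20 lay inside the CON-GFP range, and the FPC-LIPA livers were all above the FPC-GFP livers. In FPC-LIPA it was between 9.66 and 10.3 CPM in the 3 libraries of high ribosomal share and between 13.4 and 13.9 CPM in the other 3. Capg rose by 1.28 with the diet (SE 0.29, edgeR adjusted p = 0.00606) and by 1.12 with LIPA (SE 0.26, edgeR adjusted p = 0.0163). Without FPC-GFP 20 the LIPA difference was 0.98, just under 2-fold (edgeR adjusted p = 0.0393).

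**Figure D2:**
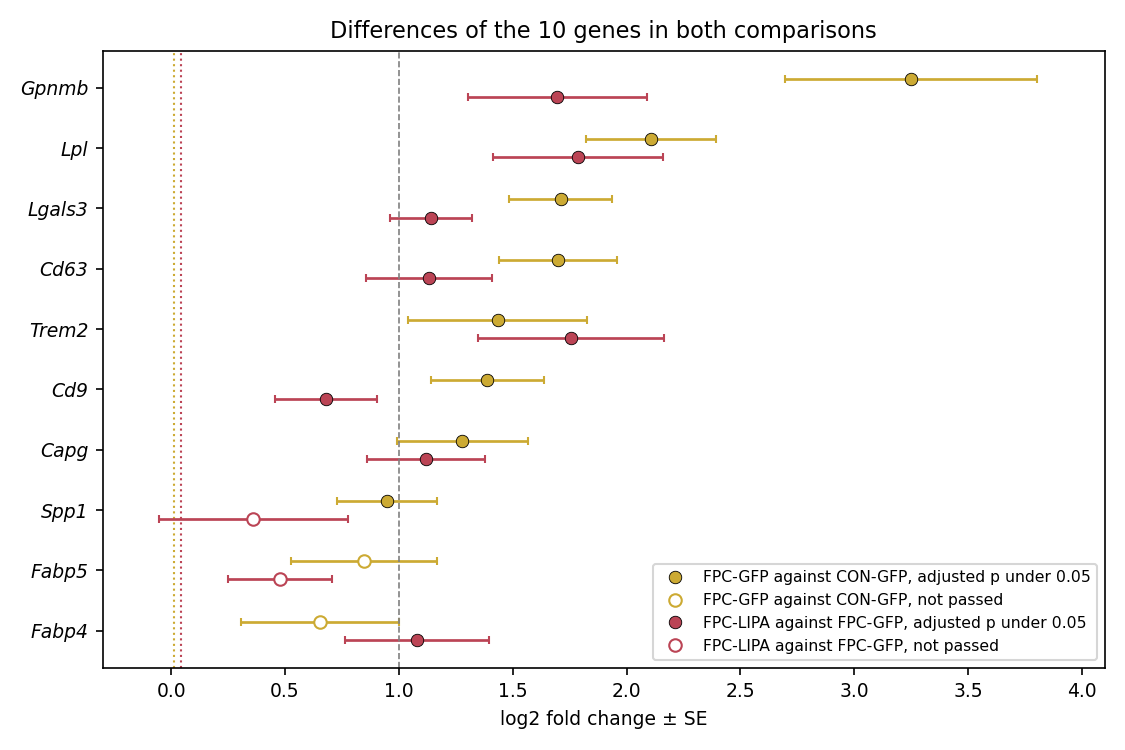
Log2 fold changes with their SE for the 10 genes in FPC-GFP against CON-GFP and in FPC-LIPA against FPC-GFP (6 livers per group). Filled points passed at an adjusted p under 0.05, open points did not, the dashed line marks a 2-fold change and the dotted lines are the medians of all tested genes (0.01 and 0.04). Gpnmb has the largest diet difference (3.25) and Lpl the largest LIPA difference (1.79).

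Diet and vector together were seen in FPC-LIPA against CON-GFP, which reuses the libraries of both other comparisons. All 10 genes were DE and higher there, where 14.7% of 14433 tested genes passed and were higher and 11.8% were DE and higher. In 7 of the 10 genes the groups were separate, against 6.26% of tested genes, and Fabp4, Fabp5 and Spp1 overlapped. Gpnmb had a log2 fold change of 4.93 (SE 0.50), Lpl 3.86 (SE 0.34), Trem2 3.16 (SE 0.39) and Lgals3 2.83 (SE 0.23). Spp1 had the lowest, 1.27 (SE 0.38, edgeR adjusted p = 0.0271), and was 0.75 without FPC-LIPA 37 (edgeR adjusted p = 0.0578). The median was 2.59 for the 10 genes. Without FPC-LIPA 36, 37 and 39, 9 of the 10 genes passed with a median of 2.50 (11.7% of tested genes passed and were higher), and Fabp5 had 1.01 (edgeR adjusted p = 0.0999).

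Per kb of exon, Spp1 was the most abundant member in each group, with means of 19.2, 37.3 and 47.8 CPM per kb in the control, FPC-GFP and FPC-LIPA livers. Cd9 followed with 4.69, 12.4 and 19.8 CPM per kb. Gpnmb and Trem2 were the least abundant, with 0.0869 and 0.206 CPM per kb in CON-GFP livers, and 2.87 and 1.90 CPM per kb in livers of FPC-LIPA mice. Lpl averaged 1.09 CPM per kb in the CON-GFP livers and 16.3 CPM per kb in the FPC-LIPA livers, close to Lgals3 at 18.1 CPM per kb.

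The members also varied between livers of a group. FPC-GFP 19 was the highest FPC-GFP liver for 7 of the 10 genes, and FPC-LIPA 37 the highest FPC-LIPA liver for 5. FPC-GFP 19 was also the highest FPC-GFP liver for the summed level of 12 pan-macrophage markers, at 840 CPM. Over the 18 libraries, likeness was measured as the root mean square difference of gene-centred log2 CPM, which contains the group differences. Of the 45 pairs of members, Lgals3 and Capg were most alike (0.40) and Gpnmb and Spp1 least alike (1.94). Among the 12740 genes that averaged 1 CPM or more, the nearest to Lgals3 was Fcgr1 (0.32), an Fc receptor gene of macrophages, followed by Cd5l and Cybb. Nearest to Trem2 was Hebp2 (0.54), nearest to Gpnmb was Mmp12 (1.01), the macrophage elastase gene, and nearest to Lpl was Lyz2 (0.54), the lysozyme gene of myeloid cells. Nearest to Cd63 was Fcgr3 (0.44), and nearest to Cd9 was Htatip2 (0.38). Spp1 (Morc4, 0.37), Fabp4 (Anxa1, 0.43) and Fabp5 (Unc119, 0.45) had other nearest genes.

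Relatives of the members did not all move with them. Of 16 tested tetraspanins, Cd9 and Cd63 included, 4 passed and were higher and 1 was lower with the diet, and 5 were higher and 1 was lower with LIPA, where 12.9% and 14.4% of all tested genes passed and were higher. Only Cd53 passed in the LIPA comparison without FPC-LIPA 36, 37 and 39. In that fit, which also serves for the families below, 1.11% of all tested genes passed and were higher. Cd81, a broadly expressed tetraspanin, had 0.03 (SE 0.11) and 0.01 (SE 0.17), while Cd53, a leukocyte tetraspanin, rose with LIPA by 1.70 (SE 0.33) and by 1.06 without the 3 libraries (edgeR adjusted p = 0.0367). Of the fatty acid binding protein genes, Fabp4 and Fabp5 included, 1 of 5 tested passed in edgeR with the diet and 3 of 6 with LIPA, all higher. The DESeq2 Wald test called 2 of the 5 higher with the diet. Without the 3 libraries 0 of 6 passed with LIPA in edgeR, of which 2 had an unadjusted p under 0.05, and the median of the 6 log2 fold changes went from 1.23 to 0.57. Fabp1, the abundant hepatocyte form, did not pass in either comparison. Fabp2, the intestinal form, rose with LIPA by 1.95 (SE 0.44) and had -0.03 (SE 0.21) with the diet. Fabp7 rose in both, by 1.13 (SE 0.23) and 1.55 (SE 0.30). Without the 3 libraries the LIPA differences of Fabp2 and Fabp7 were 0.48 (edgeR adjusted p = 0.203) and 1.07 (edgeR adjusted p = 0.0792). Fabp6, Fabp9 and Pmp2 had 0 counts in all 18 libraries. Of 6 tested galectin genes with Lgals3 included, 2 passed and were higher in each comparison, and Lgals4 passed and was lower with the diet. Lgals1 was 0.05 (SE 0.23) with the diet and rose by 1.50 with LIPA (SE 0.38), which was 0.55 without the 3 libraries (edgeR adjusted p = 0.204), where only Lgals3 of the galectin genes passed. In the gelsolin family, 3 of 5 tested genes passed with the diet and 1 with LIPA, Capg in both. Flii and Gsn, its relatives, were at -0.68 (SE 0.25) and -0.71 (SE 0.26) with LIPA and did not pass in edgeR, while the DESeq2 Wald test called 2 genes of the family lower with LIPA. Without the 3 libraries they were at -0.22 and -0.26, and only Capg passed.

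Of 4 tested genes in a list of the TREM family and Cd300e, a CD300 family gene, 3 passed with the diet and 1, Trem2, with LIPA. Among all tested genes, 12.9% and 14.4% passed and were higher. Treml4 and Cd300e passed with the diet, with 1.39 (SE 0.23) and 1.51 (SE 0.31), and did not pass with LIPA. When FPC-LIPA 36, 37 and 39 were left out, 0 of the 4 passed with LIPA in edgeR, and all 4 had an unadjusted p under 0.05. Of all genes tested in that fit, 1.11% passed and were higher. Trem1 had at most 2 counts in any CON-GFP library. Of the MiT/TFE transcription factors, which are known to drive lysosomal genes and Gpnmb, Tfe3 had 0.87 with the diet (SE 0.18) and -0.87 with LIPA (SE 0.29), and passed in both. Tfec rose with LIPA by 1.16 (SE 0.20), and Tfeb and Mitf did not pass in either. Without the 3 libraries the LIPA difference of Tfe3 was -0.38 and did not pass (edgeR adjusted p = 0.404), and that of Tfec was 0.99 (edgeR adjusted p = 0.0384).

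**Figure D3:**
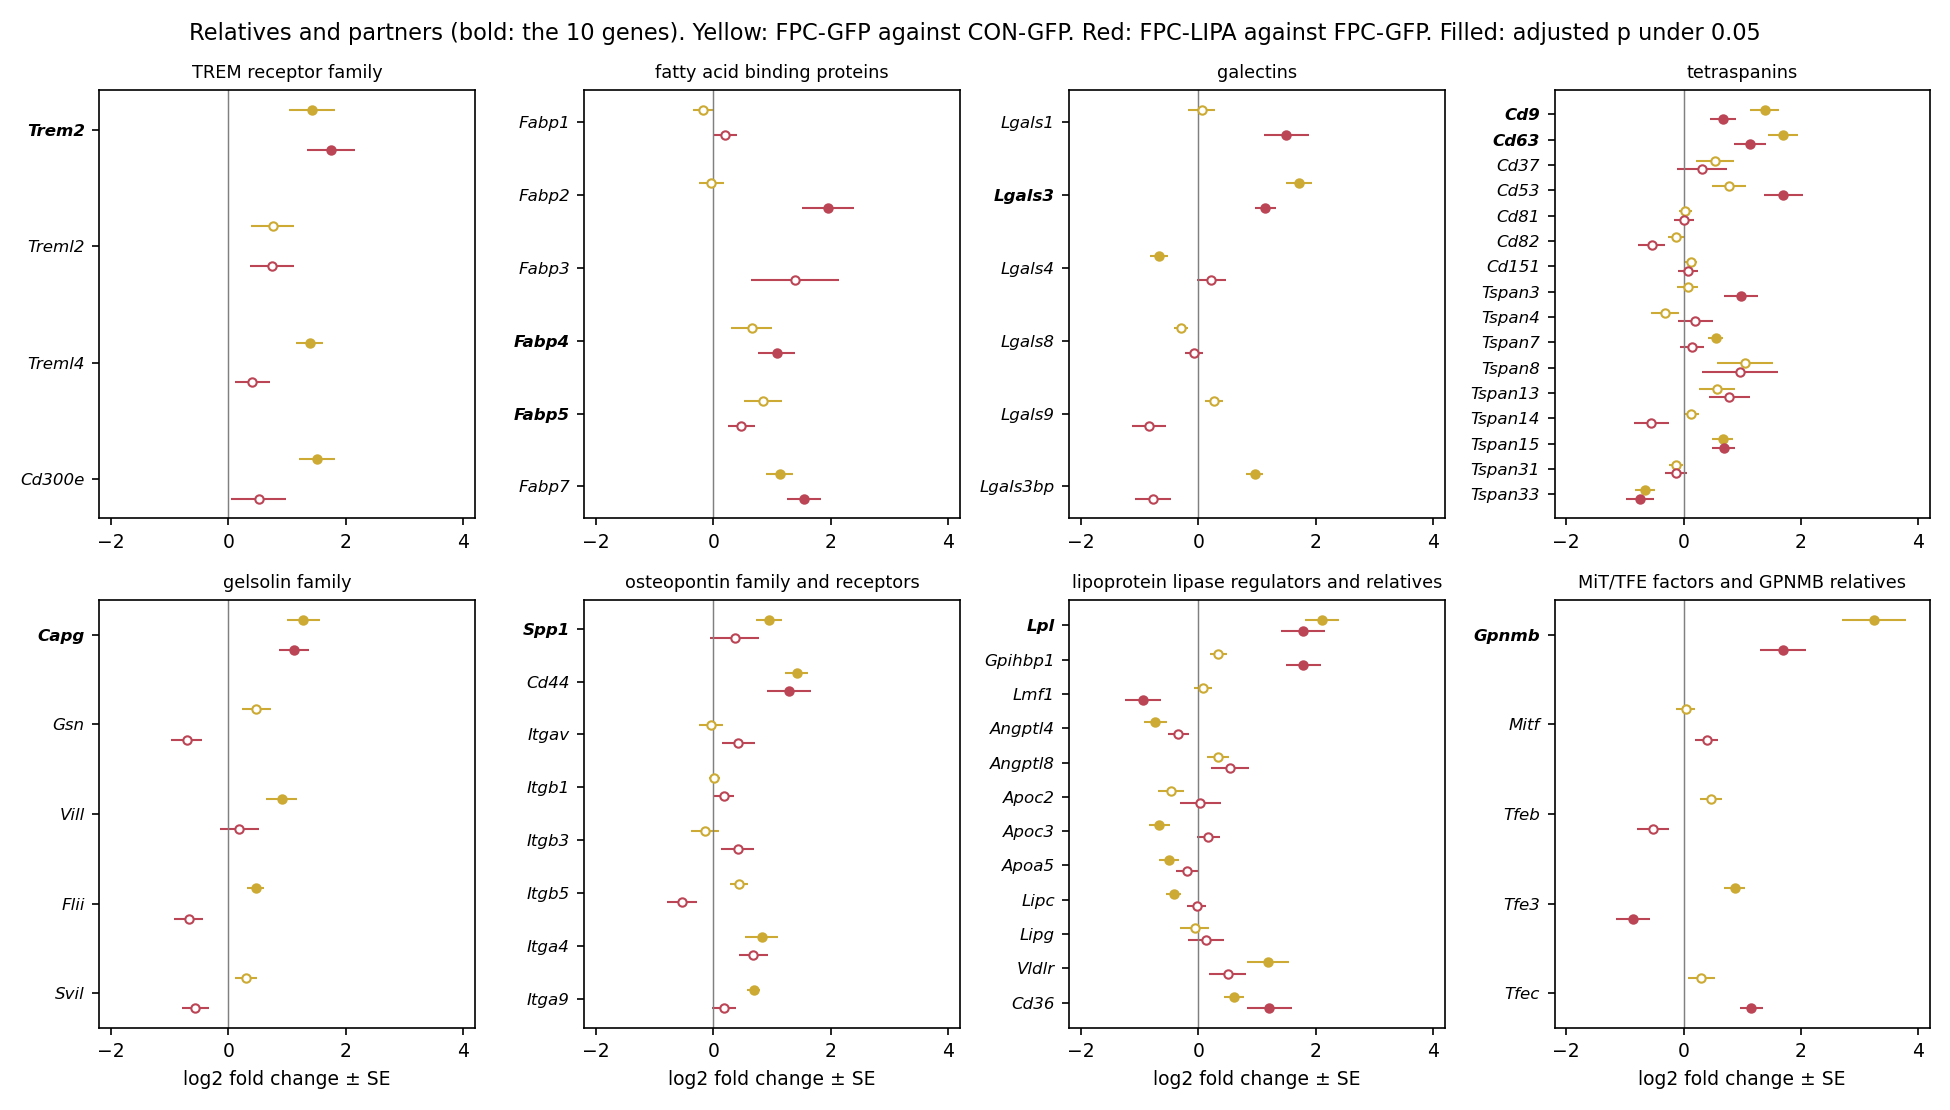
Log2 fold changes with SE of gene families and partners of the members (bold) in FPC-GFP against CON-GFP (yellow) and FPC-LIPA against FPC-GFP (red), with 6 livers per group. Filled points passed at an adjusted p under 0.05. The TREM panel also holds Cd300e, a CD300 family gene. Members lie to the right of 0 in every panel. Some relatives lie near 0, such as Cd81 at 0.03 and 0.01, and others lie further right than the members of their panel with LIPA, such as Cd53 at 1.70, Fabp2 at 1.95 and Lgals1 at 1.50.

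Other genes reported in lipid-associated macrophages were examined as a further list. Of 25 tested with the diet, 15 passed and were higher and 3 passed and were lower, with a median log2 fold change of 0.66. Of 26 tested with LIPA, 10 passed, all of them higher, with a median of 0.42. Mmp12 rose in both comparisons, by 2.08 (SE 0.48) and 2.49 (SE 0.47). Clec7a, the receptor dectin-1, had 0.77 (SE 0.32) with the diet, did not pass, and rose with LIPA by 3.47 (SE 0.55). Its levels in FPC-LIPA were 140 to 159 CPM in the 3 libraries of high ribosomal share and 12.2 to 54.4 CPM in the other 3. Plin2, the coat protein of lipid droplets, rose with the diet by 0.99 (SE 0.28) and had -0.64 (SE 0.30) with LIPA, which did not pass. Without the 3 libraries 2 genes of this list passed in the LIPA comparison. Over all tested genes, 12.9% passed and were higher with the diet, 14.4% with LIPA and 1.11% with LIPA without the 3 libraries.

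Macrophage markers were higher with the diet, and fewer of them passed with LIPA. The summed level of the 12 pan-macrophage genes was 197 to 341 CPM in CON-GFP livers, 458 to 840 CPM in FPC-GFP and 916 to 1338 CPM in FPC-LIPA, without overlap. Without Lyz2, left out after the values were seen, the sum ran from 343 to 833 CPM in FPC-LIPA livers, which overlapped with the 378 to 577 CPM of FPC-GFP, and from 157 to 265 CPM in the control group. The median log2 fold change of the 12 genes with LIPA was 0.41. Of these genes 11 passed and were higher with the diet and 5 with LIPA. Without FPC-LIPA 36, 37 and 39, 4 passed with LIPA. In that smaller fit all 12 were higher, against 10 with all libraries, and their median was 0.67. There 10 had an unadjusted p under 0.05, against 6. Over all tested genes, 12.9%, 14.4% and 1.11% passed and were higher in these fits. Adgre1, which encodes F4/80, rose by 1.56 (SE 0.18) and by 1.77 (SE 0.40). Csf1r, the receptor for macrophage colony-stimulating factor, was singled out after its values were seen, and had 1.39 (SE 0.22) with the diet and -0.13 (SE 0.37) with LIPA. It was 24.1 to 27.5 CPM in the 3 FPC-LIPA libraries of high ribosomal share and 47.1 to 123 CPM in the other 3. Of 9 Kupffer cell genes 6 passed and were higher with the diet and 4 with LIPA, and 1 did with LIPA without the 3 libraries. Clec4f, a Kupffer cell lectin, rose by 1.01 (SE 0.17) and 0.49 (SE 0.16). Timd4 had 1.11 (SE 0.20) and 0.95 (SE 0.38), and passed with the diet and not with LIPA.

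Monocyte markers were summed to 7.01 to 13.9 CPM in CON-GFP livers, 9.28 to 18.6 CPM in FPC-GFP and 18.8 to 74.9 CPM in FPC-LIPA, with the 3 highest values in FPC-LIPA 36, 37 and 39. Ccr2, the receptor that brings monocytes into tissue, had 0.22 (SE 0.33) with the diet and rose with LIPA by 1.42 (SE 0.30). With LIPA 3 of 6 tested monocyte genes passed, where 14.4% of all tested genes passed and were higher. Without those 3 libraries 0 of 7 passed in edgeR, of which 4 had an unadjusted p under 0.05, and 1.11% of all tested genes passed and were higher. The part of the macrophage and monocyte markers, and of the libraries of high ribosomal share, in the levels of the 10 genes was not tested.

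Other cell types were checked by their markers. For comparison, 12.9% of all tested genes passed and were higher with the diet and 14.4% with LIPA. Passed and lower were 10.9% and 6.87%. Without FPC-LIPA 36, 37 and 39, 1.11% passed and were higher with LIPA. In the LIPA comparison 2 of 3 tested neutrophil genes, 4 of 7 dendritic cell genes, 2 of 5 B cell genes, 3 of 8 stellate cell genes and 1 of 8 endothelial genes passed and were higher, and 0 of 4 T and NK cell genes did in edgeR or DESeq2, where 1 had an unadjusted p under 0.05. Without FPC-LIPA 36, 37 and 39 no gene of these lists passed in edgeR, and from 1 (T and NK cell) to 5 (B cell) per list had an unadjusted p under 0.05. With the diet, 3 of 8 stellate cell genes and 4 of 8 endothelial genes passed and were higher, and Cd4 passed and was lower. With the diet 0 of 5 dendritic cell genes and 0 of 3 B cell genes passed in edgeR or DESeq2, with 0 at an unadjusted p under 0.05. For the neutrophil list 0 of 3 genes passed in edgeR and 1 in DESeq2, with 1 at an unadjusted p under 0.05 in each. Of the hepatocyte genes 2 of 6 passed and were lower with the diet and 1 of 6 with LIPA. Of 3 tested adipocyte genes, Cidec, which fat-laden hepatocytes also express, passed and was higher with the diet and lower with LIPA. Adipoq, Plin1, Lep and Retn were too low to be tested.

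The members were also set against the summed pan-macrophage level, a description with no test in which Lyz2 makes up much of the FPC-LIPA sum. Gpnmb was 0.214% of the sum in CON-GFP, 0.946% in FPC-GFP and 1.75% in FPC-LIPA. Lpl was 4.61%, 8.09% and 15.4%, and Lgals3 was 1.77%, 2.60% and 3.13%. Trem2 was 0.401%, 0.452% and 0.918%, with livers from 0.211% to 0.698% in FPC-GFP and from 0.341% to 1.63% in FPC-LIPA. Cd9 (3.92%, 4.36% and 3.73%) and Capg (0.866%, 0.903% and 1.10%) differed less between the groups, and Spp1 was 12.6%, 10.6% and 6.99%. Fabp5 was 3.57%, 3.04% and 2.21%. Against the sum without Lyz2, Gpnmb was 0.264%, 1.24% and 3.24%, and Lpl was 5.68%, 10.6% and 31.0%. By liver, Lpl ran there from 7.46% to 18.0% in FPC-GFP and from 10.2% to 52.3% in FPC-LIPA, so the groups overlapped. Gpnmb ran from 0.440% to 2.00% and from 2.11% to 4.99%. Cd9 was 4.80%, 5.61% and 7.53%, and Spp1 was 15.6%, 13.6% and 13.5%. The lower FPC-LIPA values of Cd9 and Fabp5 than in FPC-GFP were not seen without Lyz2 (Fabp5 4.41%, 3.89% and 4.70%).

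**Figure D4:**
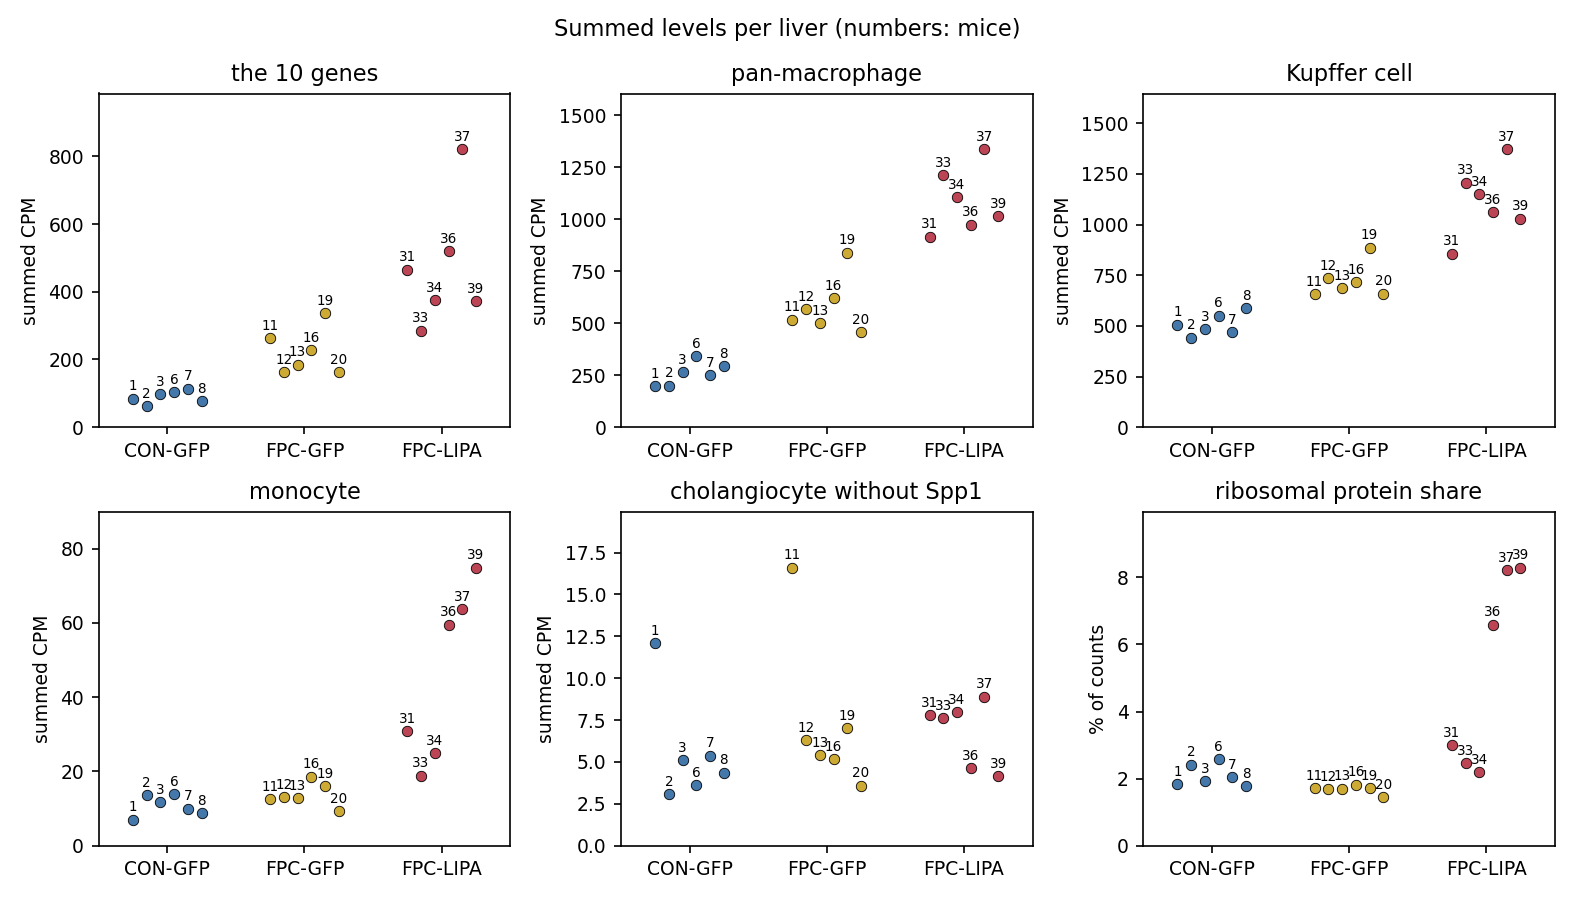
Summed CPM per liver of the 10 genes and of 4 marker lists, and the share of counts on ribosomal protein genes, with the mouse numbers of each group beside the points. The pan-macrophage sum separates the 3 groups (at most 341, 458 to 840, and at least 916 CPM), which without Lyz2 does not hold for FPC-GFP (378 to 577 CPM) and FPC-LIPA (343 to 833 CPM), while FPC-LIPA 36, 37 and 39 have the highest monocyte sums and ribosomal shares.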

How the data were processed

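RNA from 18 livers, 1 library per mouse, was sequenced by the authors, who used Trimmomatic for trimming, HISAT2 2.1.0 for mapping to GRCm38 (mm10) and featureCounts of Subread for counting per gene. The deposited values are raw counts with no normalization. The strand setting, the annotation version and how multi-mapped reads were treated are not given in the sources used here, and the labels name both a stranded and an unstranded kit, so counts of overlapping genes, paralogs and pseudogenes are uncertain. Of the 23 columns of the table, which lists 55487 genes, 5 carry the names of other vectors and were left out. Columns were matched to mice by condition and mouse number. Coordinates and exon lengths are from GENCODE M21 for GRCm38.

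Genes were kept with filterByExpr, scaled by TMM and tested with the quasi-likelihood test of edgeR 4.0.16 in R 4.3.3, fitted on the 12 libraries of each comparison, with Benjamini-Hochberg adjustment over all tested genes. Genes at least 2-fold apart with an adjusted p under 0.05 were called DE, the study's thresholds. Dividing the absolute log2 fold change by the root of its F statistic gave the SE. Log2 CPM was computed with a prior count of 2. The script was tested on simulated data. Libraries of a group differed beyond counting noise (chi-square per degree of freedom 15.4 to 591), so errors are over mice.

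The members and the gene lists were chosen with earlier results of these data known. Named were all 10 genes; of each other list the 2 genes of highest mean CPM and the 2 DE genes of largest change; a short set of partner and marker genes; and for each member its nearest genes. Mitf, Csf1r, Epcam, Lep, Plin1, Retn, Lgals4 and genes at or near 0 counts fall outside this rule and were chosen after their values were seen. Of the galectin list, 9 of 10 genes are in the table, and 1 gene of another list is not reported here. Alternatives were scaling by library size alone, by upper quartiles or by DESeq2 size factors, the DESeq2 1.42.0 Wald test, 2 other filters, all 18 libraries in one fit, sample numbers 55 to 68, each library left out, removal of the length trend and no fold minimum. Leaving out FPC-LIPA 36, 37 and 39, and Lyz2 from the macrophage sum, was chosen after seeing the data. Tables were made with pandas 2.3.3 and numpy 2.4.6 in Python 3.11.15, and plots with matplotlib 3.10.9.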

Additional observations from a re-analysis of the deposited data

Results flagged for a closer look

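In groups of 6 livers, a value was listed where its gap to the nearest other liver, as a share of the group's range, exceeded Dixon's 95% critical value. Chance lists about 1 group in 20, and 3 of 30 groups of the 10 genes were listed. Spp1 was 201.8 CPM in FPC-LIPA 37, where the next liver had 96.5 CPM (gap 0.628 of the range). Lpl was 104 CPM in FPC-GFP 19, where the next had 48.0 CPM (0.770). Fabp4 was 46.3 CPM in FPC-GFP 11, where the next had 20.8 CPM (0.736).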

How the results depend on the processing

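No paired analysis was possible because the groups share no mouse numbers. Of 680 values of single genes under the alternatives, 634 kept their direction and their side of the DE thresholds, 34 lost and 10 gained the call, and 2 changed sign. Both were of Spp1 in FPC-LIPA against FPC-GFP, -0.27 within sample numbers 55 to 68 and -0.19 without FPC-LIPA 37, where leaving out each library in turn gave -0.19 to 0.51. The count of DE genes among the 10 in that comparison, 7, was 4 with library size alone, 1 within sample numbers 55 to 68 and 2 without FPC-LIPA 36, 37 and 39. The count over all genes, DE and higher, went from 1508 to 892, 93 and 111. The last 2 alternatives use fewer samples, and the cause of the lower counts was not tested. With each library left out, from 5 to 7 of the 10 genes were DE, where 5.47% to 14.0% of all tested genes were DE and higher. In FPC-GFP against CON-GFP the count was from 6 to 9 over all alternatives and from 7 to 8 with each library left out. The share of all tested genes called higher was from 2.93% to 12.9% and from 3.78% to 5.17% in these fits. In FPC-LIPA against CON-GFP the count was from 8 to 10 and from 9 to 10. There the share called higher was from 5.51% to 14.7% and from 9.07% to 13.7%. No member was DE and lower under any alternative. Scaling by library size alone moved the median over all tested genes from 0.01 to 0.21 with the diet and from 0.04 to -0.09 with LIPA (log2), and gave log2 fold changes of 1.15 for Spp1 and 1.04 for Fabp5 with the diet, both DE. Counts of Gpnmb in CON-GFP, from 2 per library, limit the precision of its fold change.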
